A study of Mus musculus with 13 samples.

Results

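Id1, Id2 and Id3 encode 3 of the inhibitor of DNA binding proteins, and binding of HA-tagged Myf6 around these genes was read from peak lists of 13 CUT&RUN libraries of mouse embryonic fibroblasts (MEFs). In CUT&RUN a nuclease held by an antibody cuts the chromatin at bound places. Each gene was taken with 50 kb to either side, in genome build GRCm39: chr2:152528000-152629000 for Id1, chr12:25093000-25196000 for Id2 and chr4:135820000-135923000 for Id3. These 3 windows held 74 of the 178951 peaks in the 13 lists. Of the 74 peaks, 54 came from HA libraries, 2 from IgG libraries and 18 from the H3K27me3 library. Where HA and IgG peaks of different libraries overlapped by at least 1 bp they were merged, which left 25 of the series' 71864 regions in the windows.

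All MEFs carried the alleles Pax7-CreERT2, Rosa26-LSL-tdTomato and CAG-rtTA3, the last a doxycycline-dependent transactivator, and a lentiviral Myf6 with an HA tag under a promoter that this transactivator drives. They were collected after 24 h in iMPC medium. One group (+Myf6+F/R/C) had 2 µg/mL doxycycline with 5 µM Forskolin (F), which activates adenylyl cyclase, 5 µM RepSox (R), a blocker of the TGF-β type I receptor, and 3 µM CHIR99021 (C), a blocker of the kinase GSK3. The +Myf6 group had 2 µg/mL doxycycline without the compounds, and the third had no doxycycline. Each treatment had 2 libraries with an HA antibody and 2 with IgG, made from the same nuclei as the HA library of their number. A single library of +Myf6+F/R/C cells was made for H3K27me3, the histone mark that Polycomb complexes leave on silenced chromatin. Its title gives replicate 1, while its library name begins like those of replicate 2. Myf6 was supplied by a virus in fibroblasts, so the binding measured is that of an overexpressed factor outside muscle. The labels do not say whether the 2 replicates of a group were separate cultures, so the spread between them may be technical. The lists hold no expression values, so whether the Id genes or Myf6 were transcribed was not measured, and fibroblast or muscle markers could not be checked.

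Id proteins share the helix-loop-helix dimerization domain of bHLH transcription factors and lack the basic region that contacts DNA. They bind the E proteins (Tcf3, Tcf4 and Tcf12), which Myf6 and the other myogenic bHLH factors need as partners to bind E-boxes, the motif CANNTG. Id genes are typically expressed in proliferating progenitors, and Id1, Id2 and Id3 are known targets of BMP signalling through SMAD proteins.

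The nearest upstream regions with HA peaks lay 0.397, 1.40 and 0.251 kb from the intervals taken for Id1, Id2 and Id3. The edges of these intervals are known only to the nearest kb. The region at Id1 also had a peak without doxycycline and none in +Myf6 cells. The promoters of Id2 and Id3, the 2 that matched an entry in the RefSeq table used, are shown because of these upstream peaks. The sequences come from RefSeq on build GRCm38.p6, at chr12:25096043-25096342 on the minus strand for Id2 and at chr4:136143572-136143871 on the plus strand for Id3. Each runs 5′ to 3′ from 250 bases before to 50 bases after the annotated start, with any E-box CANNTG in capitals. This build differs from that of the peaks, so these positions cannot be set against the peak coordinates, and no sequence is given for the peaks themselves.
Id2: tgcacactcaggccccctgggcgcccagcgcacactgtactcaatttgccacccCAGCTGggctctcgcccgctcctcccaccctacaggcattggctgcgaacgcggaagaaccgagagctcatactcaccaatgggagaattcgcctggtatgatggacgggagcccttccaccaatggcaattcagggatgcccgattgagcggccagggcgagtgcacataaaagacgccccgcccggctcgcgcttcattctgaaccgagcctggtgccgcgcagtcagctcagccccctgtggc
Id3: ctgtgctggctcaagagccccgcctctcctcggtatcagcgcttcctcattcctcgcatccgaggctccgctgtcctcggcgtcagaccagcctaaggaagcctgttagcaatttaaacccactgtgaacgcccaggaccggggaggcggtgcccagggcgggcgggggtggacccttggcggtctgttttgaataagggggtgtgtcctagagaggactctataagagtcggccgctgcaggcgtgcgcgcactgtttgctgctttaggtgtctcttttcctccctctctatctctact
On either strand, the Id2 promoter held 1 E-box. It begins 196 bases before the start and reads CAGCTG, the form that myogenic bHLH factors are known to prefer. The Id3 promoter held no CANNTG. Among 32851 RefSeq promoters of this length, 72.3% held at least 1 E-box and 16.3% at least 1 of the preferred form. The motif GGCGCC, the core of BMP-responsive SMAD elements, was found once in the Id2 promoter (231 bases before the start) and not in that of Id3, against 11.9% of all promoters. A match of letters is a description and not a measured binding site.

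Depth was recovered from the lists as the mean number of fragments per 10 kb. For replicates 1 and 2 of the HA libraries it was 61.9 and 40.9 in +Myf6+F/R/C cells, 42.4 and 30.6 in +Myf6 cells and 30.6 and 23.7 in cells without doxycycline. IgG libraries ran from 8.25 to 22.7, and the H3K27me3 library had 54.3. The induced HA lists held 28436 to 38454 peaks and the HA lists without doxycycline 2179 and 4230. IgG lists held 437 to 1724. Fold enrichments below are the authors', relative to the local background of the same library, and summit pileups are numbers of fragments over the summit, recovered from the authors' scores. A peak's position is given by its interval, and its distance is counted from the edge of the gene interval that remains once the 50 kb flanks are taken off the window, which is known to the nearest kb.

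HA peaks were called around all 3 Id genes after Myf6 induction, and IgG peaks hardly at all. In the Id1 window, +Myf6+F/R/C HA replicates 1 and 2 had 5 and 4 peaks and +Myf6 HA replicates 2 and 2, against 0 and 0 for +Myf6+F/R/C IgG and 0 and 1 for +Myf6 IgG. In the Id2 window, HA lists held 5 and 3 peaks with the compounds and 2 and 1 with Myf6 alone, against 0 in all 4 IgG lists. In the Id3 window, HA lists held 10 and 3 peaks with the compounds and 7 and 4 with Myf6 alone, against 1 and 0 for +Myf6+F/R/C IgG and 0 and 0 for +Myf6 IgG. Every induced HA library was thus above every IgG library at each gene. The means were 3.25 ± 1.5 HA peaks against 0.25 ± 0.5 IgG peaks for Id1, 2.75 ± 1.71 against 0 for Id2, and 6 ± 3.16 against 0.25 ± 0.5 for Id3 (SD, n = 4 each). The exact permutation test, two-sided, gave p = 0.0286 for each gene, the smallest that 4 against 4 libraries allow, and 0.0865 after Benjamini-Hochberg adjustment with 27212 tiles of 100 kb over the genome. The same separation was found in 33.0% of these tiles, so it is common along the genome. Kept as pairs from the same nuclei, the libraries gave p = 0.125 by exact sign flips for each gene, the smallest that 4 pairs allow. The IgG libraries were shallower. Thinned to 8.25 fragments per 10 kb, the HA lists kept on average 1.05, 0.55 and 1.05 peaks for Id1, Id2 and Id3, against 0.163, 0 and 0.113 for IgG (exact permutation p = 0.0571, 0.0286 and 0.0571). Peaks were kept from a −log10 p of 4.31, the lowest in the shallowest list. The other IgG lists of these treatments began at 4.54 to 5.27, so their weaker peaks could not be counted, whereas the HA lists began lower. With only peaks of −log10 q of at least 5, Id2 and Id3 no longer separated (exact permutation p = 0.143 and 0.429).

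**Figure D1:**
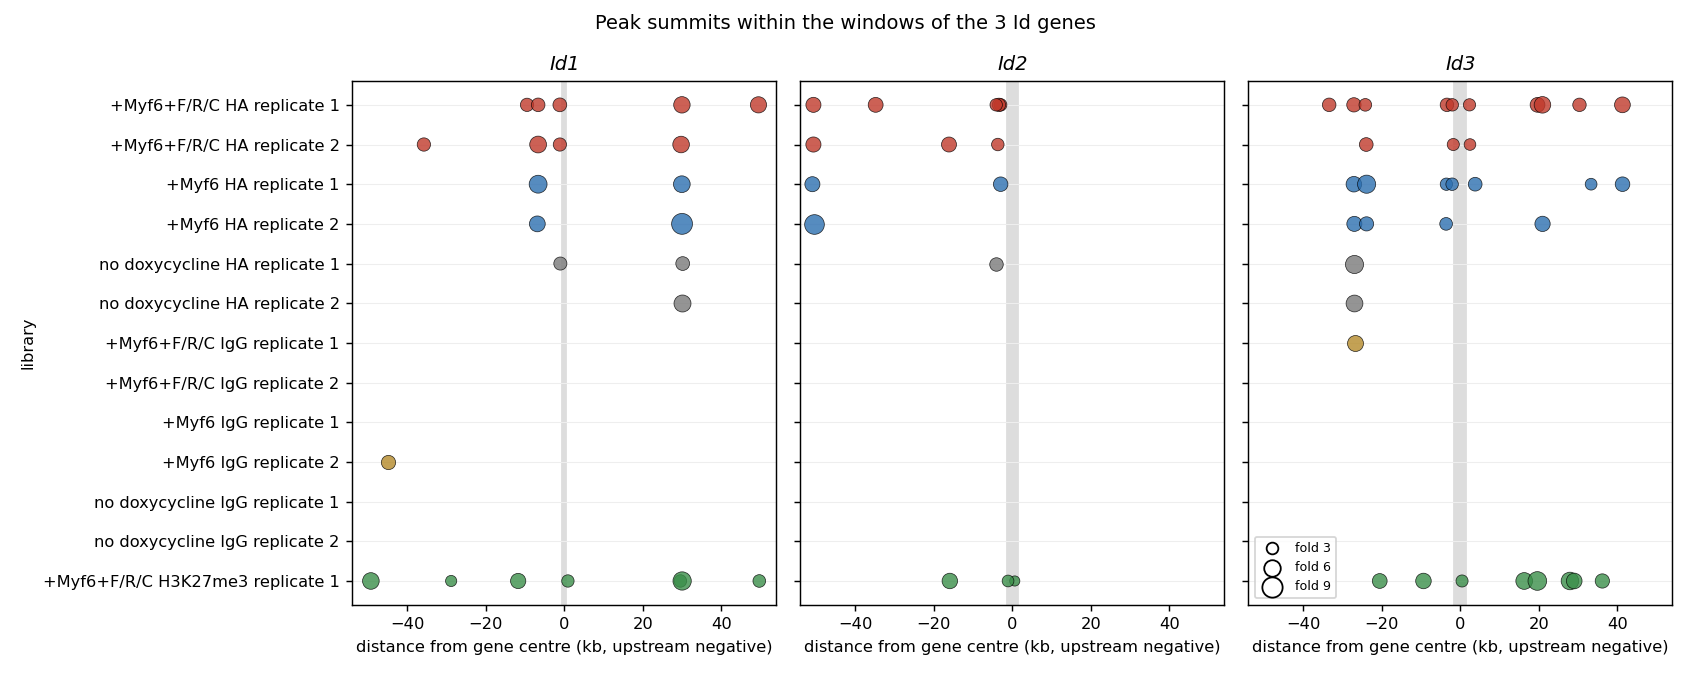
Peak summits in the windows of Id1, Id2 and Id3 by library (rows), with distance from the gene centre in kb on the x axis, upstream to the left, and the area of each circle scaled to the authors' fold enrichment. The grey band is the gene interval. No HA summit lies on a gene interval, while H3K27me3 summits lie on or next to all 3.

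Without doxycycline few HA peaks were called. The 2 HA libraries without doxycycline had 2 and 1 peaks around Id1, 1 and 0 around Id2, and 1 and 1 around Id3, and the 2 IgG libraries of these cells had none in any of the 3 windows. Set against them, +Myf6 HA libraries averaged 5.5 ± 2.12 peaks and HA libraries without doxycycline 1 ± 0 around Id3 (SD, n = 2 each), with no overlap (exact permutation p = 0.333, the smallest for 2 against 2, adjusted p = 0.924). Around Id1 the means were 2 ± 0 with Myf6 and 1.5 ± 0.707 without doxycycline, and around Id2 1.5 ± 0.707 and 0.5 ± 0.707. Their libraries overlapped (exact permutation p = 1 and 0.667), but at equal depth they did not. Thinned to 23.7 fragments per 10 kb, the means with Myf6 and without doxycycline were 1.9 and 1.05 peaks for Id1, 1.33 and 0.25 for Id2 and 3.35 and 1 for Id3 (exact permutation p = 0.333 each). With only peaks of −log10 q of at least 5, Id1 and Id2 also separated (differences of 2 and 1 peaks, exact permutation p = 0.333 each), and Id3 no longer did (0.5 peaks, exact permutation p = 1). Among all tiles, 36.1% had both +Myf6 HA lists above both lists without doxycycline. With the 3 compounds, both HA lists were above both lists without doxycycline at all 3 genes, as in 39.4% of tiles (exact permutation p = 0.333 each, adjusted p = 0.845). The means were 4.5 ± 0.707 against 1.5 ± 0.707 for Id1, 4 ± 1.41 against 0.5 ± 0.707 for Id2, and 6.5 ± 4.95 against 1 ± 0 for Id3 (n = 2 each). The libraries without doxycycline were shallower. Thinned to the same depth, the means were 2.63 against 0.925 peaks for Id1, 2.23 against 0.275 for Id2 and 3.48 against 1 for Id3, still without overlap. With the stricter q, the libraries overlapped at Id2 and Id3 (differences of 1.5 and 3.5 peaks, exact permutation p = 1 each). HA peaks without doxycycline were above IgG in both libraries for Id1 and Id3 (exact permutation p = 0.333 each) but not for Id2 (exact permutation p = 1), against 3.13% of tiles. With the stricter q these differences were 0, 0 and 0.5 peaks for Id1, Id2 and Id3. With a flank of 20 kb in place of 50 kb they were 0.5, 0.5 and 0 peaks. For this comparison the share among tiles with a wide H3K27me3 peak was not computed.

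**Figure D2:**
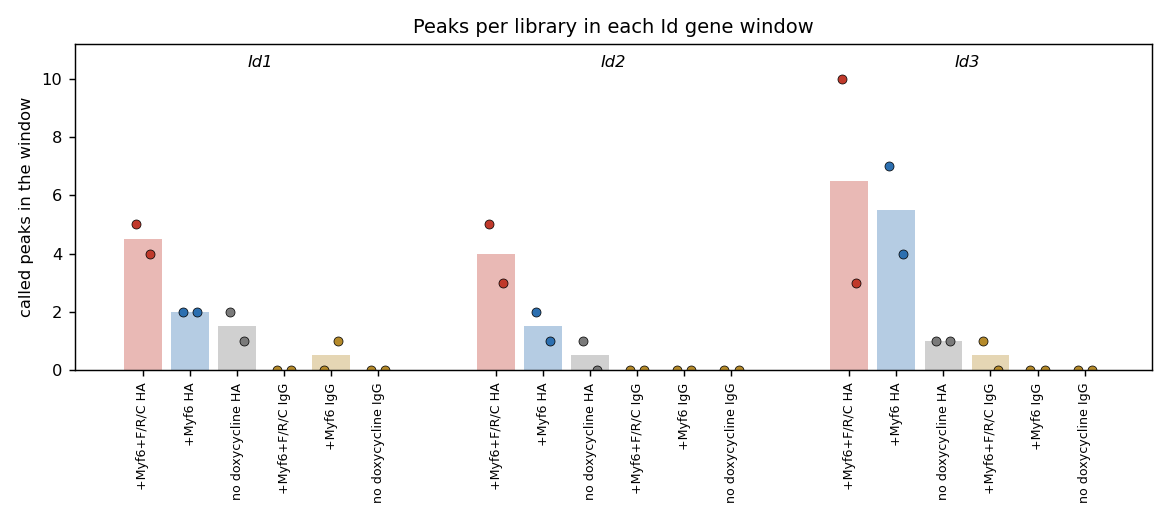
Called peaks per library (y axis) in the windows of Id1, Id2 and Id3, with HA libraries left of IgG libraries and, within each, +Myf6+F/R/C, +Myf6 and no doxycycline from left to right. Points are the 2 libraries and bars their mean. The Id3 window has the widest spread between replicates, with 10 and 3 HA peaks in +Myf6+F/R/C cells.

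How full a window was depended on the library. The 10 Id3 peaks of +Myf6+F/R/C replicate 1 were matched or exceeded in 0.213% of tiles of that list, but the 3 peaks of replicate 2 in 18.4%. With Myf6 and no compounds, the 7 Id3 peaks of replicate 1 were matched or exceeded in 0.790% of tiles and the 4 of replicate 2 in 12%. For Id1, 8.40% and 10.1% of tiles had as many peaks in the +Myf6+F/R/C lists and 27.4% and 33.4% in the +Myf6 lists. For Id2 the shares were 8.40% and 18.4% with the compounds and 27.4% and 51.6% without. For Id3 the 2 replicates of each treatment thus gave unlike ranks. These ranks are among all tiles, which were laid without regard to genes and counted by summit. The windows are centred on genes, slightly longer than a tile and counted by overlap. Ranks among tiles with a wide H3K27me3 peak, as the Id genes have, were not computed.

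Some regions recurred in both HA lists of a treatment. There were 3, 2 and 3 of them around Id1, Id2 and Id3 in +Myf6+F/R/C cells and 2, 1 and 3 in +Myf6 cells. At least 1 such region was found in 37.6% of tiles with the compounds and in 34.1% without. Of these regions, 2 of 8 with the compounds and 2 of 6 without also had a control peak, against 19.3% and 20.7% over the genome. A stricter count takes a region as a Myf6 site of a treatment where both HA lists of that treatment have a peak and none of the 8 control lists (HA without doxycycline, and IgG) has one. In +Myf6+F/R/C cells there were 1, 2 and 3 such sites around Id1, Id2 and Id3, and in +Myf6 cells 1, 1 and 2. A tile with at least 1 site was found for 33.6% of the genome with the compounds and 29.7% without, and with at least 2 sites for 14.1% and 11.5%. Of the 7 sites found under either treatment, 3 were sites of both, 1 at each gene. How often sites are shared by the treatments elsewhere in the genome was not counted. Whether 3 of 7 is a usual share is therefore not known. The numbers of sites around the Id genes rest on the definition. Where both lists had to reach a −log10 q of 5, no gene had a +Myf6+F/R/C site, and with replicate summits within 200 bp Id1 and Id2 had 0 +Myf6 sites. Tiles were laid without regard to genes. Among the 2185 tiles with an H3K27me3 peak at least as wide as that on Id2, a comparison made with the Id gene peaks known, 68.0% held a +Myf6+F/R/C site and 62.2% a +Myf6 site. In those tiles the separation of induced HA from IgG was found in 68.2%, that of +Myf6+F/R/C from no doxycycline in 79.4% and that of +Myf6 from no doxycycline in 73.7%.

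Around Id1, the site of both treatments lay 6.02 kb upstream of the gene (chr2:152571359-152571976). The +Myf6+F/R/C libraries had folds of 4.07 and 6.19 there, with summit pileups of 18 and 27 fragments, and the +Myf6 libraries folds of 7.01 and 5.50 with 19 and 16 fragments. No HA library without doxycycline and no IgG library had a peak there. The only other Id1 region called in each of the 4 induced HA lists lay 29.0 kb downstream (chr2:152607954-152608797). Its folds were 5.93 and 6.03 with the compounds, 6.12 and 9.55 with Myf6 alone, and 4.16 and 6.33 without doxycycline, on 20 and 18, 14 and 21, and 6 and 8 fragments. Since both HA libraries without doxycycline had this peak, it was not counted as a site, and 2 H3K27me3 peaks overlapped it.

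Closest to Id1, 0.397 kb upstream (chr2:152577106-152577603), both +Myf6+F/R/C libraries had a peak, with folds of 4.18 and 3.85 and 29 and 25 fragments. No +Myf6 library had a peak there, and replicate 1 without doxycycline had one with a fold of 3.75 on 8 fragments. The peak was therefore present in uninduced cells of 1 library and cannot be called a site. Each of the remaining 4 regions around Id1 had a peak in 1 list. These were +Myf6+F/R/C peaks 35.1 and 8.86 kb upstream and 48.8 kb downstream, and the +Myf6 IgG peak of replicate 2, 44.3 kb upstream, with a fold of 4.48 on 5 fragments.

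At Id2, every region lay upstream, towards higher coordinates, since the gene is on the minus strand. Regions 1.40 to 2.53 kb from the gene made up a close group of 3. In the nearest (chr12:25147403-25147621), +Myf6+F/R/C replicate 1 had a fold of 3.51 on 36 fragments and +Myf6 replicate 1 a fold of 4.63 on 30 fragments. Neither replicate 2 list had a peak there. The next, 1.80 kb upstream (chr12:25147799-25148271), was a site of +Myf6+F/R/C cells, with folds of 3.89 and 3.44 on 39 and 24 fragments and no peak in any +Myf6 list. The third (chr12:25148527-25149022) had a peak in +Myf6+F/R/C replicate 1, with a fold of 3.39 on 33 fragments, and in replicate 1 without doxycycline, with a fold of 4.00 on 10 fragments. Replicate 1 thus supplied 5 of the 6 HA peaks called in this group.

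The Id2 site of both treatments lay 49.0 kb upstream (chr12:25195004-25195497), just inside the edge of the window. Its folds were 4.98 and 5.02 on 11 and 8 fragments with the compounds, and 4.96 and 8.49 on 9 and 15 fragments with Myf6 alone. These are among the lowest pileups of the sites in the 3 windows. Regions 14.5 and 33.0 kb upstream had a peak in 1 +Myf6+F/R/C list each. Just outside the windows, the nearest regions lay 2.06 kb beyond the edge upstream of Id3 (1 +Myf6 list, fold 3.35), 8.09 kb beyond the edge downstream of Id2 (1 +Myf6+F/R/C list, fold 6.45) and 10.26 kb beyond the edge upstream of Id1, where each of the 4 induced HA lists had a peak, with folds of 6.32 to 7.44.

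Id3 had the most regions, 12 against 7 for Id1 and 6 for Id2. Its site of both treatments lay 22.2 kb upstream (chr4:135847237-135847805), with folds of 3.51 and 4.14 on 20 and 18 fragments with the compounds and of 7.22 and 4.41 on 31 and 11 fragments with Myf6 alone. A neighbouring region 25.2 kb upstream (chr4:135844257-135844775) was cut in every treatment. It had peaks in +Myf6+F/R/C HA replicate 1 (fold 4.49), both +Myf6 HA libraries (5.33 and 4.98) and both HA libraries without doxycycline (7.19 and 6.19), and also in +Myf6+F/R/C IgG replicate 1 (5.60 on 6 fragments). With peaks in 3 control lists it was not counted as a site.

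The other 3 Id3 sites flanked the gene. A site of +Myf6 cells lay 1.72 kb upstream (chr4:135867753-135868279), with folds of 3.34 and 3.55 on 15 and 13 fragments, and there +Myf6+F/R/C replicate 1 had a fold of 4.00 on 28 fragments. A site of +Myf6+F/R/C cells lay 0.251 kb upstream (chr4:135869167-135869749), with folds of 3.41 and 3.22 on 29 and 24 fragments, and there +Myf6 replicate 1 had a fold of 3.42 on 18 fragments. For both of these sites the treatment that did not qualify had a peak in 1 of its lists. A further +Myf6+F/R/C site lay 0.715 kb downstream (chr4:135873715-135874290), with folds of 3.31 and 2.98 on 27 and 20 fragments, and no +Myf6 list had a peak there. Of the remaining 7 Id3 regions, 1.79 to 39.6 kb from the gene, 5 had a peak in 1 induced HA list and 2 in 1 list of each induced treatment.

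All 3 Id genes carried H3K27me3 in the +Myf6+F/R/C cells, in the 1 library made. Their windows held 7, 3 and 8 H3K27me3 peaks for Id1, Id2 and Id3, numbers reached in 2.61%, 18.3% and 1.47% of tiles. A peak of 2618 bp (chr2:152578188-152580805) overlapped the Id1 interval and ran past its downstream end, with a fold of 3.37 on 82 fragments. Id2 had a peak of 1920 bp (chr12:25144155-25146074), with a fold of 3.04 on 95 fragments, and a second of 555 bp beside it with a fold of 2.28. On Id3 the peak was 2390 bp wide (chr4:135871185-135873574), with a fold of 3.22 on 72 fragments. Apart from the second Id2 peak, as wide as which were 49.8% of all H3K27me3 peaks, these peaks were wide for the list. Only 0.904%, 7.12% and 1.98% of all H3K27me3 peaks were as wide as the widest on Id1, Id2 and Id3, whereas 92.4%, 95.5% and 93.3% had as high a fold. A peak at least as wide as the wide one on Id2 was found in 8.03% of tiles. The local background around them, the fragments in the surrounding 10 kb, was 26.4, 34.1 and 24.2 times the library mean, a level reached by 1.81%, 0.570% and 2.45% of H3K27me3 peaks. The fold of a peak is taken relative to this surrounding level.

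No HA peak overlapped any of these H3K27me3 peaks, in any of the 6 HA libraries, although HA peaks lay close by. The nearest was 585 bp away at Id1, 1329 bp at Id2 and 141 bp at Id3. The lists show only places called above their local background. For the induced HA peaks within 5 kb of the genes this background was 5.26 to 9.60 times the library mean. HA signal on the genes that was not called as a peak was not measured, so a missing peak is not a measured absence of binding. Of the 2348 H3K27me3 peaks at least 1920 bp wide in the genome, 37.2% had no induced HA peak on them and 18.4% had none on them but at least 1 within 5 kb. The arrangement at the Id genes was thus found at a minority of peaks of this width. The width was taken from the Id2 peak and the comparison made with the Id gene peaks known, so it is a description and not a test. None of the 7 sites of either treatment overlapped an H3K27me3 peak (exact Clopper-Pearson interval 0 to 41.0%, covering counting error only), against 32.3% of the 15089 +Myf6+F/R/C sites and 32.0% of the 12587 +Myf6 sites of the genome. With 7 sites this difference is within counting error. Of the 25 regions, 4 had an H3K27me3 peak, 29.0 and 48.8 kb downstream of Id1, 14.5 kb upstream of Id2 and 18.1 kb downstream of Id3. The share with such a peak among all 71864 regions of the series was not counted, so this number has no background.

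**Figure D3:**
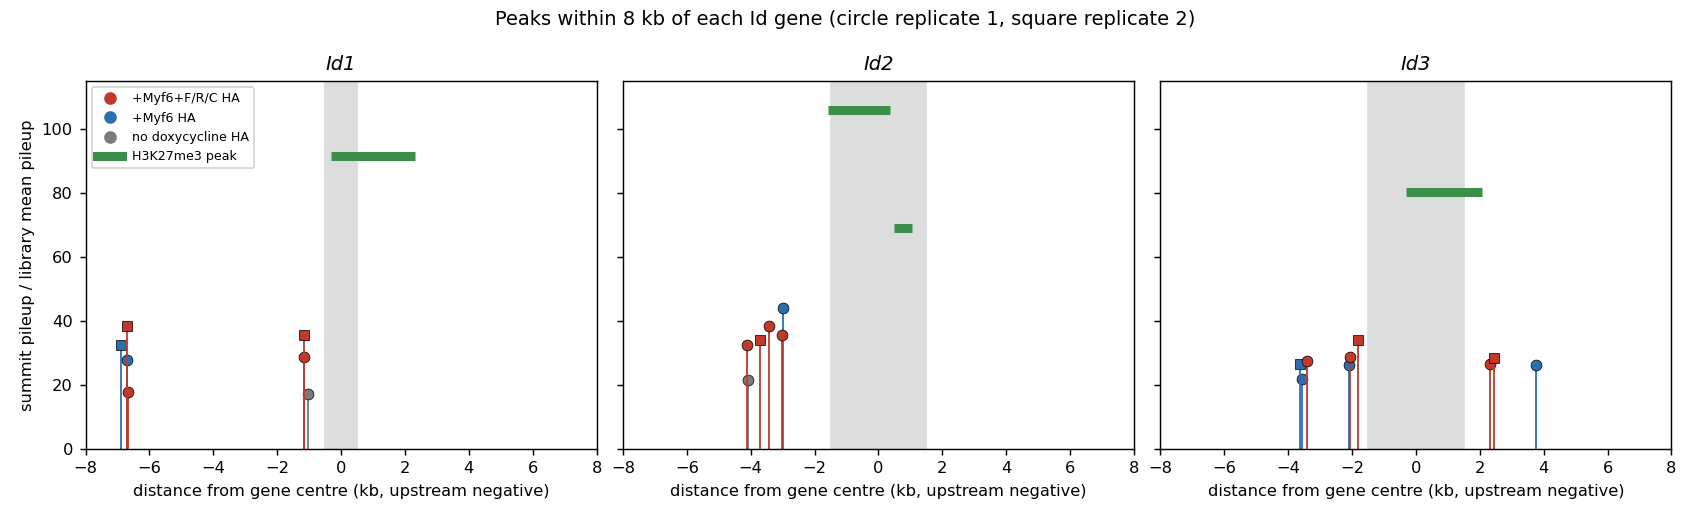
Peaks with summits within 8 kb of the gene centres of Id1, Id2 and Id3. The x axis is the distance from the gene centre in kb (upstream negative), and the y axis the summit pileup divided by the library's mean pileup. Circles are replicate 1, squares replicate 2, green bars the extent of H3K27me3 peaks and grey bands the gene intervals. Called HA peaks stand to the side of each green bar, at lower ratios than the mark, and signal without a call is not drawn.

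The HA peaks next to the genes mostly had lower folds and higher local backgrounds than those farther away, with overlapping ranges. Within 5 kb of the gene intervals, induced HA libraries had 16 peaks. By library, +Myf6+F/R/C replicates 1 and 2 had 1 and 1 at Id1, 3 and 1 at Id2, and 3 and 2 at Id3. The +Myf6 libraries had 0 and 0 at Id1, 1 and 0 at Id2, and 3 and 1 at Id3. HA replicate 1 without doxycycline had 1 at Id1 and 1 at Id2, replicate 2 had none, and none of the 6 IgG libraries had any. The 16 peaks had folds of 2.98 to 4.63 with a median of 3.47, and the other 32 induced HA peaks of the windows ran from 3.04 to 9.55 with a median of 4.98. Their local background was 5.26 to 9.60 times the library mean, with a median of 7.94, and that of the other 32 ran from 1.12 to 8.69 with a median of 2.88. Within each list, only 0.263% to 2.35% of peaks had a local background as high. The pileups themselves were in the upper part of the lists, with 2.07% to 25.8% of peaks as high, while the folds were in the lower part, with 72.1% to 99.7% of peaks as high. The 2 peaks without doxycycline next to Id1 and Id2 had backgrounds of 3.00 and 3.75 times their library mean. The local background is 1 count for the 10 kb around a summit, peak included, and is known only where a peak was called. Neighbouring peaks of 1 list share much of their 10 kb, so the 16 peaks are not independent values. At Id2, the 3 peaks of +Myf6+F/R/C replicate 1 had 581, 566 and 551 fragments in theirs. At Id1 no +Myf6 list had a peak within 5 kb, and the nearest, 6.02 kb upstream, had backgrounds of 2.71 and 4.25 times the mean. What part this high local level has in the calls next to the genes was not tested.

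Comparing the compounds with Myf6 alone, the 2 +Myf6+F/R/C HA libraries had more peaks than both +Myf6 libraries around Id1 (5 and 4 against 2 and 2) and Id2 (5 and 3 against 2 and 1). The differences of the means were 2.5 peaks for each, with exact permutation p = 0.333, the smallest possible. Around Id3 the libraries overlapped (10 and 3 against 7 and 4, a difference of 1 peak, exact permutation p = 1). Both compound lists were above both +Myf6 lists in 6.52% of tiles and below them in 2.93%, and after adjustment p was 1 for all 3 genes. Within replicate 1 the difference was 3 peaks at each gene, and within replicate 2 it was 2 peaks for Id1, 2 for Id2 and -1 for Id3. The +Myf6+F/R/C libraries were deeper. Thinned to 30.6 fragments per 10 kb, the means were 3.9 and 2 peaks for Id1, 3.58 and 1.45 for Id2, and 5.43 and 5.13 for Id3, with the compounds first. With the stricter q, the libraries overlapped at Id2 (a difference of 0.5 peaks, exact permutation p = 1).

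For the 4 regions called in each of the 4 induced HA lists, summit pileups can be set side by side after division by each library's mean pileup. The region 6.02 kb upstream of Id1 had 17.7 and 38.4 times the mean in +Myf6+F/R/C cells, against 27.8 and 32.5 in +Myf6 cells (log2 difference of -0.21, exact permutation p = 1). The region 29.0 kb downstream of Id1 had 19.7 and 25.6 against 20.5 and 42.7 (-0.40, exact permutation p = 0.667), with 12.9 and 31.3 in HA libraries without doxycycline. At Id3, the region 22.2 kb upstream had 19.7 and 25.6 against 45.4 and 22.4 (-0.51, exact permutation p = 0.667). In these 3 regions the 2 groups overlapped. The region 49.0 kb upstream of Id2 was the one without overlap, with 10.8 and 11.4 in +Myf6+F/R/C cells against 13.2 and 30.5 in +Myf6 cells (-0.85, exact permutation p = 0.333). Among 10625 such regions of the genome, 27.2% were lower with the compounds without overlap and 11.7% higher. The median log2 difference was -0.45 over the 4 regions and -0.14 over all 10625. The +Myf6+F/R/C libraries were deeper, and over all their peaks the median ratio was lower. It was 12.8 and 15.6 times the mean, against 16.1 and 18.3 in the +Myf6 lists. What part depth has in the lower ratios was not tested. With 2 libraries a group no difference here could pass 0.05.

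**Figure D4:**
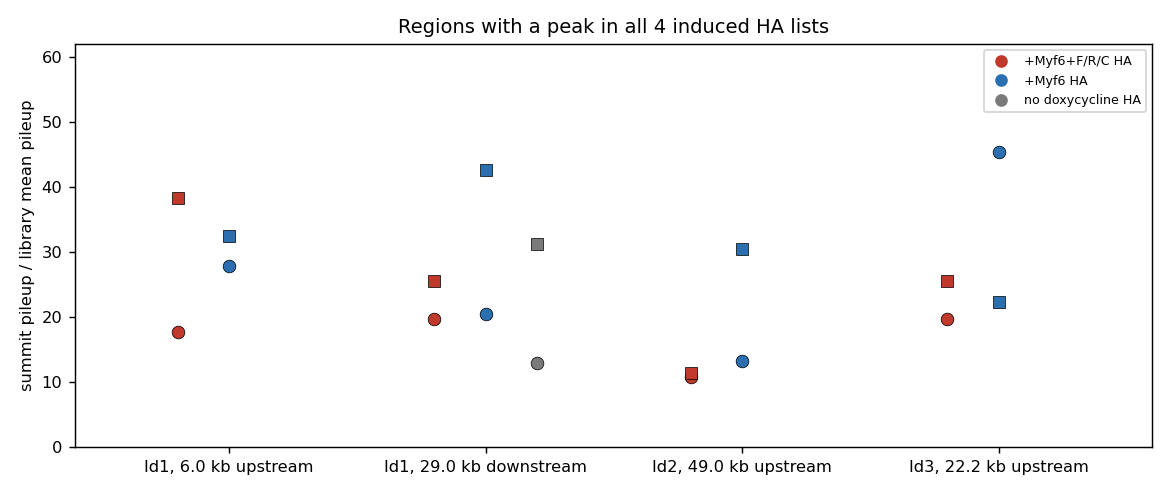
Summit pileup divided by the library's mean pileup (y axis) at the 4 regions around Id1, Id2 and Id3 (x axis, with their distance from the gene) called in each of the 4 induced HA lists. Points are libraries, circles replicate 1 and squares replicate 2, and grey points mark HA peaks without doxycycline. The groups overlap at 3 regions, and at the Id2 region both +Myf6+F/R/C points (10.8 and 11.4) lie below both +Myf6 points.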

How the data were processed

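CUT&RUN was done on MEFs with an HA antibody, IgG or an H3K27me3 antibody. Per the submitters' processing notes, MACS2, deepTools and DiffBind were used with GRCm39. Neither tool versions nor an aligner is given in the sources used here. The authors deposited 1 narrow-peak list per library, so replicates were not pooled. Each list gives, as deposited, a fold enrichment (a ratio to local background), the −log10 of a p-value and a q-value, and an integer score that was not used. Each fold belongs to its own list.

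Summit pileup and local background were recovered from the fold, taken as (pileup + 1)/(expected + 1), and the Poisson p-value, and for at least 99.9% of peaks of each list the result matched the p-value's −log10 within 0.002. The lowest expected pileup of a list is the library mean. For all peaks of low expected pileup, the only ones checked, the 10 kb fragment counts came out whole to within 0.05. The induced HA peaks next to the genes and the H3K27me3 peaks on them had higher expected pileups and were outside this check. Recovery and tests were checked on simulated data. The recovered expected pileup is that of the 10 kb around the summit, peak included.

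Peaks on chromosomes 1 to 19, X and Y were counted if they overlapped a window by 1 bp. Counts were compared by exact permutation tests, two-sided, adjusted by Benjamini-Hochberg over the windows and 27212 tiles of 100 kb. Tiles replaced the planned windows around all annotated starts, because the gene table at hand is of GRCm38.p6. For the same reason the planned lists of E proteins, other bHLH inhibitors and BMP genes, and E-boxes at summits, were not analysed here. Of the 3 genes, 2 matched a RefSeq promoter. Strands of Id2 and Id3 are from RefSeq, and the plus strand of Id1 is background knowledge. In thinning, pileups and window counts were drawn binomially 20 times at the ratio of depths and kept if they reached the smallest −log10 p found in that shallower list.

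The named genes are the 3 members in full. The members, lists and alternatives were chosen with earlier results of these data known. Per the labels' protocol, the HA and IgG reactions with one replicate number shared nuclei, and they were also tested as pairs. Their replicate differences in tile counts had correlations of 0.0148 to 0.0253. Python 3.11.15, numpy 2.4.6, pandas 2.3.3, scipy 1.17.1 and matplotlib 3.10.9 were used.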

Additional observations from a re-analysis of the deposited data

How the results depend on the processing

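Over the alternatives to the peak counts (peaks with −log10 q of at least 5, a 20 kb flank, each replicate left out, the replicate block and thinning), 124 of 132 differences had more peaks in the group named first, 6 were 0 and 2 were lower. These are not 132 independent checks. The replicate block cannot change a difference, and the runs with a replicate left out reuse the remaining libraries. None had an adjusted p under 0.05, which most of these runs could not reach. The smallest exact permutation p was 0.333 for 2 against 2 libraries. Exact sign flips allowed 0.125 for 4 pairs and 0.5 for 2 pairs. For induced HA against IgG, leaving out 1 library gave an exact permutation p of 0.0571. The 2 that turned were for Id3 with the compounds against Myf6 alone, at -2.5 peaks without +Myf6+F/R/C HA replicate 1 and -0.5 without +Myf6 HA replicate 2 (range over left-out replicates -2.5 to 4.5). For induced HA against IgG, the p for Id2 was 0.143 with the 20 kb flank and 0.143 with the stricter q, and that for Id3 0.429 with the stricter q (exact permutation, n = 4 each). Numbers of sites depended on their definition. Without the HA lists among the controls, and also with no control filter, Id1 had 3 sites in +Myf6+F/R/C cells and 2 in +Myf6 cells. With −log10 q of at least 5, none of the 3 genes had a +Myf6+F/R/C site, and Id2 and Id3 had 0 +Myf6 sites, while Id1 had 1. With replicate summits within 200 bp, Id2 and Id3 had 1 site each in +Myf6+F/R/C cells, and Id1 and Id2 had 0 in +Myf6 cells. From 1 remaining list, sites numbered 2 to 3 for Id1, 3 to 4 for Id2 and 3 to 9 for Id3 in +Myf6+F/R/C cells, and 1 to 2 for Id2 and 3 to 6 for Id3 in +Myf6 cells. The number of sites with H3K27me3 was 0 under every alternative run. Those alternatives (summit inside the mark's peak, or only H3K27me3 peaks with −log10 q of at least 5) only narrowed the overlap. From a main count of 0 they could not give another number, so they do not test it. Pairing by replicate number (replicate block) left the differences as they were and gave exact sign-flip p = 0.125 for HA against IgG and 0.5 to 1 for 2 pairs. The labels do not say what a replicate number shares between HA groups, so a shared batch was not settled. Replicate differences correlated at 0.126 for +Myf6+F/R/C and +Myf6, 0.0499 for +Myf6 and no doxycycline and -0.013 for +Myf6+F/R/C and no doxycycline, over 27212 tiles. E-boxes at 50 and 100 bp around summits were not run, for want of a genome of the files' build. Since most induced HA peaks of the windows were lost on thinning to 8.25 fragments per 10 kb, depth limits what the IgG lists could show.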
